A study of Homo sapiens with 6 samples.

Results

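Replication-dependent histone genes encode the linker histone H1 and the core histones H2A, H2B, H3 and H4, which package newly made DNA. They were taken as all probe sets whose single gene symbol in the array annotation was H1-1 to H1-6, or H2AC, H2BC, H3C or H4C followed by digits. This gave 104 probe sets for 61 genes, of 49293 probe sets and 18132 genes in all: 6 genes of H1, 15 of H2A, 18 of H2B, 10 of H3 and 12 of H4. A further 9 probe sets list several symbols with a histone gene among them and were left out by this choice.

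The genes were compared between A375 cells, an established human melanoma cell line, given a short hairpin RNA against UBE2S by lentivirus, and control A375 cells, with 3 biological replicates and 3 arrays in each group. UBE2S is the ubiquitin-conjugating enzyme that lengthens ubiquitin chains for the anaphase-promoting complex at the end of mitosis. The titles spell the target UEB2S and the descriptions UBE2S. The sources used here do not state what the control cells received or how many hairpin sequences were used. The p-values measure the spread between these samples, and the labels do not say whether the replicates were separate cultures. Each value is a log2 expression value minus the median of its probe set over the 6 arrays, so 0 is the middle of the arrays, a difference of 1 is a 2-fold change, and the level of a gene is not kept.

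Most histone mRNAs of this kind carry no poly(A) tail. They end in a stem-loop that is bound by SLBP and cut by a machine built on the U7 small nuclear RNP, they accumulate in S phase, and they are degraded when replication stops. Some of these genes also give longer, polyadenylated transcripts. The genes lie in clusters in which many H2A and H2B genes are arranged head to head on a shared promoter. The labelling protocol is named in the labels only as the standard Affymetrix one, and how transcripts without a tail enter it was not tested.

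UBE2S stood at -1.13, -1.05 and -1.01 in the knockdown arrays and at 1.06, 1.01 and 1.01 in the control arrays, a 4.25-fold reduction (adjusted p = 9.23e-08 in limma). The 6 arrays had medians between -0.009 and 0.004. The hybridization spike-in transcripts were 0.168 higher in knockdown arrays and the poly-A spike-ins 0.0978 higher, so values are relative to the array-wide level set by the deposited normalization. The 3' to 5' difference of the ACTB control probe sets was larger by 0.191 in the knockdown group, whose arrays did not overlap the controls, and that of GAPDH by 0.0226, with overlap; their part in the results was not tested. Centred values cannot show whether melanoma markers are present. Of 7 such markers, 1 rose and 1 fell (S100B 1.09, MITF -0.72), and of 8 measured markers of other cells 1 rose and 1 fell (HBB 0.41, DCN -0.23).

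The histone genes moved upward more often than downward. Of the 61 genes, 22 rose and 4 fell in limma (adjusted p under 0.05 over all 18132 genes), and 35 did not pass the test. That is 36.1% higher and 6.56% lower, beside 21.4% higher and 18.6% lower among all genes. The median change was 0.077, from -0.32 to 1.19, against -0.0038 over all genes. Knockdown and control arrays did not overlap in 34 of the 61 genes (55.7%), beside 50.0% of all genes. The balance depended on the scaling, and centring on spike-ins moves all genes of an array alike. With arrays centred on the hybridization spike-ins, which moved the median of all genes to -0.17, 9 histone genes rose and 17 fell (9.73% of all genes rose and 50.7% fell), with a histone median of -0.090. With poly-A spike-in centring, which moved the median of all genes to -0.10, 12 rose and 11 fell (13.7% and 34.7% of all genes). The histone median was then -0.0205. As both medians move by the same amount, the histone median stays above that of all genes under either centring by construction. The 9 genes that rose also under hybridization spike-in centring were H1-2, H2AC8, H2AC11, H2AC6, H2BC5, H2BC8, H2BC12, H3C10 and H4C8. With plain _at probe sets alone, called unshared here, which measure 46 of the genes, 7 rose and 2 fell (11% and 11.8% of all genes so measured).

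**Figure D1:**
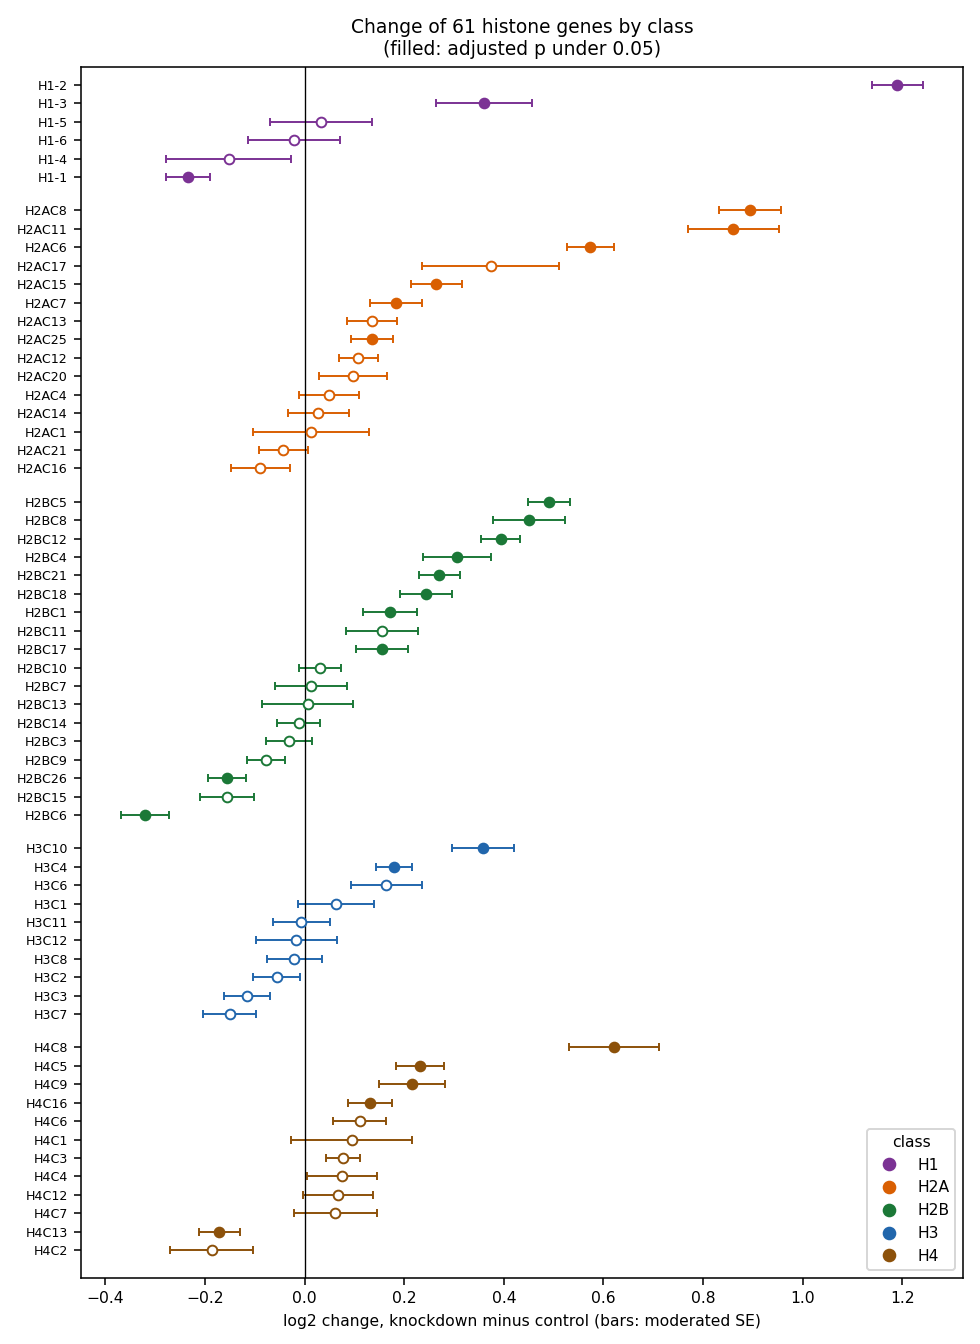
Log2 change of each of the 61 histone genes, knockdown minus control, with the moderated SE as bar, ordered by class (H1, H2A, H2B, H3, H4) and coloured by it. Filled points passed the test. H1-2 at 1.19 stands furthest to the right and H2BC6 at -0.32 furthest to the left.

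The promoters differ between classes in known elements, which were searched by their letters on both strands in the 250 bases before the start of each of the 56 genes. The sequences of genes that moved most, or in the opposite direction, are shown, from RefSeq on GRCh38.p14, 5′ to 3′ on the gene's own strand. Capitals mark AAACACA (the H1 box), CCAAT (the CCAAT box), ATTTGCAT (the octamer, bound by POU2F1) and TATAAA (the TATA box), or their reverse complements. Overlapping matches run together. A match was counted by its letters alone at any place in the window, so it need not be a working element of that gene. The TTTATA marked in H2AC8, for example, is the TATAAA near the start of H2BC8. Stretches that differ from these letters are unmarked.
H1-2, chr6:26056471-26056720, minus strand: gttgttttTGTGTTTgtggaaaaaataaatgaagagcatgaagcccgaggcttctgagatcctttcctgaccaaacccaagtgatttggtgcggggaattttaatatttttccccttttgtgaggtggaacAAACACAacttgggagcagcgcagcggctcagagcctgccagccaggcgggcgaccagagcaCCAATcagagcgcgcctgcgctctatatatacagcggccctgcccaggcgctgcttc
H1-1, chr6:26017788-26018037, minus strand: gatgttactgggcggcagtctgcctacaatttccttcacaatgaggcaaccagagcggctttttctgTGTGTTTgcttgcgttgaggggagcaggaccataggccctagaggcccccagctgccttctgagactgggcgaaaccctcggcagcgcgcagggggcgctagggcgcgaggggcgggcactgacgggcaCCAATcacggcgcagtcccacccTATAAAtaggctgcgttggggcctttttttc
H2AC8, chr6:26216671-26216920, plus strand: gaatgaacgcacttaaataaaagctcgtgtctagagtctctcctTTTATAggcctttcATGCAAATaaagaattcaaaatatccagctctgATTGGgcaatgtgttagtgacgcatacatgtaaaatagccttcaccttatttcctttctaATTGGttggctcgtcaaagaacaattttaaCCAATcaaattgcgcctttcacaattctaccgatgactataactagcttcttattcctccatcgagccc
H2BC6, chr6:26183511-26183760, plus strand: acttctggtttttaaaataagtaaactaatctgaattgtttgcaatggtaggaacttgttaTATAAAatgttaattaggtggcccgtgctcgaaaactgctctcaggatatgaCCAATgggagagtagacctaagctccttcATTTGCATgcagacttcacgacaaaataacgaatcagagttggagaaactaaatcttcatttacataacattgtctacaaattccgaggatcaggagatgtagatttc
H4C8, chr6:26285535-26285784, minus strand: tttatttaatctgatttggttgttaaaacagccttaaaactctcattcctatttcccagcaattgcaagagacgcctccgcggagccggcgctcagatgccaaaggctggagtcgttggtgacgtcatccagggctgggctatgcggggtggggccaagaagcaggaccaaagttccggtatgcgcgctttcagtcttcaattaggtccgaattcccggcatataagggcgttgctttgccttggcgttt

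AAACACA was found in 6 of 6 H1 promoters and in 0 of the other 50, and in 4.82% of all 35116 promoters. It stands in H1-2, which rose, and in H1-1, which fell. ATTTGCAT was found in 11 of 14 H2A and 14 of 18 H2B promoters and in 0 of the H1, H3 and H4 promoters, beside 1.63% of all. It stands in the stretch between H2AC8 and H2BC8 and in H2BC6, which fell. CCAAT was found in all 46 promoters of H1, H2A, H2B and H3 and in 3 of 10 of H4 (32% of all promoters), and TATAAA in 37 of the 56 (10.7% of all). H4C8, the H4 gene with the largest rise, held none of the 4 motifs in this window. Of the 25 genes with the octamer 11 rose, with a median change of 0.15, and of the 31 without it 11 rose, with a median of 0.067. Over all genes, 21.4% rose. The 25 genes are all of H2A or H2B, so this split follows class, and the octamer was not separated from class. Paired H2A and H2B genes share much of this sequence, so they are not independent in these counts.

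The linker histones went in both directions. These proteins sit on the DNA between nucleosomes, and their genes are read here by 1 probe set each. H1-2, which encodes a linker histone made in most cell types, stood at 0.57, 0.54 and 0.68 in knockdown arrays and at -0.54, -0.66 and -0.58 in control arrays. All knockdown arrays were above all control arrays by more than the spread within either group. Its rise of 1.19 (SE 0.05, 2.28-fold, adjusted p = 1.73e-06) was the only histone change of at least 2-fold over averaged probe sets, a size reached upward by 96 genes (0.529%). With the largest-variance probe set of each gene, H2AC8 (1.04) and H2AC11 (1.09) passed it too. Its probe set is of the _x_at kind, in which some probes may also bind other transcripts, so other H1 mRNAs may enter this value.

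H1-3, another linker histone, stood at 0.020, 0.12 and 0.28 in knockdown and at -0.36, -0.28 and -0.020 in control arrays. The groups came close without overlapping, and the rise of 0.36 (SE 0.10, adjusted p = 0.0178) was lost without knockdown replicate 3 (adjusted p = 0.0655), control replicate 1 (0.0565) or control replicate 2 (0.0563), and under hybridization (0.19) and poly-A spike-in centring (0.26). H1-1 stood at -0.086, -0.093 and -0.19 in knockdown and at 0.086, 0.091 and 0.16 in control arrays, lower in every knockdown array, and fell by 0.23 (SE 0.04, adjusted p = 0.003). H1-4 (-0.15, SE 0.13), H1-5 (0.033, SE 0.10) and the testis variant H1-6 (-0.021, SE 0.09) did not pass the test. The mean over the 6 genes was 0.088 ± 0.058 (SD, n = 3) in knockdown and -0.11 ± 0.12 (SD, n = 3) in control arrays, with overlap. Their median change was 0.0063, with values from -0.054 (without knockdown replicate 1) to 0.10 (without control replicate 3) when an array was left out.

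The genes of H2A, the histone that pairs with H2B in the nucleosome, rose in 6 of 15 cases and fell in 0. By limma at an unadjusted p under 0.05, 9 rose and 0 fell, a threshold passed upward by 24.6% and downward by 22.3% of all genes. H2AC8 stood at 0.35, 0.42 and 0.57 in knockdown and at -0.43, -0.52 and -0.40 in control arrays. Every knockdown array lay above every control array, and the rise was 0.89 (SE 0.06, 1.86-fold, adjusted p = 1.7e-05). Its unshared probe set, of the high signal class, gave 1.04, and its _s_at probe set gave 0.75. Signal classes are read from the rounding of the values and place a probe set between 2 and 4 (low), 4 and 8 (middle) or 8 and 16 (high) in log2 units before centring.

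H2AC11 stood at 0.47, 0.31 and 0.34 in knockdown and at -0.47, -0.31 and -0.69 in control arrays, again without overlap. It rose by 0.86 (SE 0.09, adjusted p = 1.47e-04), and both of its probe sets are unshared, with 0.63 and 1.09. In the second of these, control replicate 3 lay at -1.04 and the other control arrays at -0.46 and -0.39. H2AC6 stood at 0.24, 0.26 and 0.33 in knockdown and at -0.24, -0.28 and -0.37 in control arrays, with a rise of 0.57 (SE 0.05, adjusted p = 4e-05) from 1 probe set of the high class and the _s_at kind. The other rises were H2AC15 (0.26), H2AC7 (0.18) and H2AC25 (0.14). H2AC17 stood at 0.37 (SE 0.14, adjusted p = 0.0653) with overlap, as knockdown replicate 2 at -0.033 lay below control replicate 1 at 0.033. The remaining 8 genes lay between -0.089 and 0.14. The class median was 0.14.

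The genes of H2B rose in 8 of 18 cases and fell in 2, with a median of 0.093. That is 44.4% higher and 11.1% lower, beside 21.4% and 18.6% of all genes. H2BC5 stood at 0.23, 0.21 and 0.28 in knockdown and at -0.29, -0.18 and -0.27 in control arrays, without overlap, and rose by 0.49 (SE 0.04, adjusted p = 5.22e-05). Its 3 probe sets gave 0.38, 0.47 and 0.62, and each of them passed the test. H2BC8 stood at 0.088, 0.27 and 0.28 in knockdown and at -0.11, -0.30 and -0.31 in control arrays, without overlap, and rose by 0.45 (SE 0.07, adjusted p = 0.00143). H2BC12 stood at 0.16, 0.23 and 0.21 in knockdown and at -0.20, -0.23 and -0.15 in control arrays and rose by 0.39 (SE 0.04, adjusted p = 1.02e-04). The other rises were H2BC4 (0.31), H2BC21 (0.27), H2BC18 (0.24), the testis gene H2BC1 (0.17) and H2BC17 (0.15).

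H2BC6 went the other way. It stood at -0.098, -0.17 and -0.23 in knockdown and at 0.094, 0.16 and 0.21 in control arrays, lower in every knockdown array, and fell by 0.32 (SE 0.05, adjusted p = 9.77e-04). Its 3 probe sets gave -0.44, -0.36 and -0.16, the last with an adjusted p of 0.0781 over all probe sets in limma. H2BC26 stood at -0.12, -0.078 and -0.068 in knockdown and at 0.068, 0.025 and 0.11 in control arrays, with a fall of 0.16 (SE 0.04, adjusted p = 0.0121); with unshared probe sets alone it stood at -0.19 with an adjusted p of 0.0509. The other 8 genes did not pass the test, with values from -0.16 for H2BC15 (adjusted p = 0.0522) to 0.16 for H2BC11 (adjusted p = 0.129).

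H3 had a median of -0.012, with 2 rises and 0 falls among 10 genes (20% rose, beside 21.4% of all genes). At an unadjusted p under 0.05 in limma, 2 rose and 2 fell. H3 carries many of the tail modifications that mark active and silent chromatin. H3C10 stood at 0.068, 0.15 and 0.25 in knockdown and at -0.11, -0.30 and -0.19 in control arrays, without overlap, and rose by 0.36 (SE 0.06, adjusted p = 0.0022). H3C4 stood at 0.064, 0.11 and 0.13 in knockdown and at -0.074, -0.064 and -0.094 in control arrays, with a rise of 0.18 (SE 0.04, adjusted p = 0.00439) that did not pass under hybridization (0.011) or poly-A spike-in centring (0.081). The other 8 genes lay between -0.15 (H3C7, adjusted p = 0.0542) and 0.16 (H3C6, adjusted p = 0.109). The mean of the class overlapped between the groups, at 0.024 ± 0.037 (SD, n = 3) in knockdown and -0.016 ± 0.034 (SD, n = 3) in control arrays.

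Of the 12 genes of H4, the partner of H3 in the nucleosome core, 4 rose and 1 fell, with a median of 0.086. These shares were 33.3% and 8.33%, beside 21.4% and 18.6% of all genes. H4C8 stood at 0.51, 0.16 and 0.43 in knockdown and at -0.24, -0.16 and -0.36 in control arrays. Knockdown replicate 2 was the lowest of its group and still above every control array, and the rise was 0.62 (SE 0.09, adjusted p = 8.39e-04), measured with a single _s_at probe set. H4C5 rose by 0.23 (SE 0.05, adjusted p = 0.00523), with arrays at 0.039, 0.17 and 0.14 in knockdown and at -0.17, -0.079 and -0.092 in control cells, but not under hybridization (0.064) or poly-A spike-in centring (0.13), nor with its unshared probe set alone (0.15). H4C9 rose by 0.22 (SE 0.07, adjusted p = 0.0324), with arrays at 0.039, 0.16 and 0.072 in knockdown and at -0.26, -0.11 and -0.0054 in control cells. That call was lost under both spike-in centrings (0.048 and 0.12), with the unshared or largest-variance probe set (0.25 in both) and when knockdown replicate 2 (0.18), knockdown replicate 3 (0.23), control replicate 1 (0.15) or control replicate 2 (0.22) was left out.

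The fourth rise was H4C16 (0.13, adjusted p = 0.0474), the member outside the clusters, on chromosome 12. H4C13 fell by 0.17 (SE 0.04, adjusted p = 0.012), with arrays at -0.042, -0.10 and -0.16 in knockdown and at 0.085, 0.081 and 0.042 in control cells, read by 1 probe set of the low class; with unshared probe sets alone the same value had an adjusted p of 0.0514. Between these, 7 genes did not pass the test, from H4C2 (-0.19, SE 0.08, adjusted p = 0.119) to H4C6 (0.11, SE 0.05, adjusted p = 0.145).

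**Figure D2:**
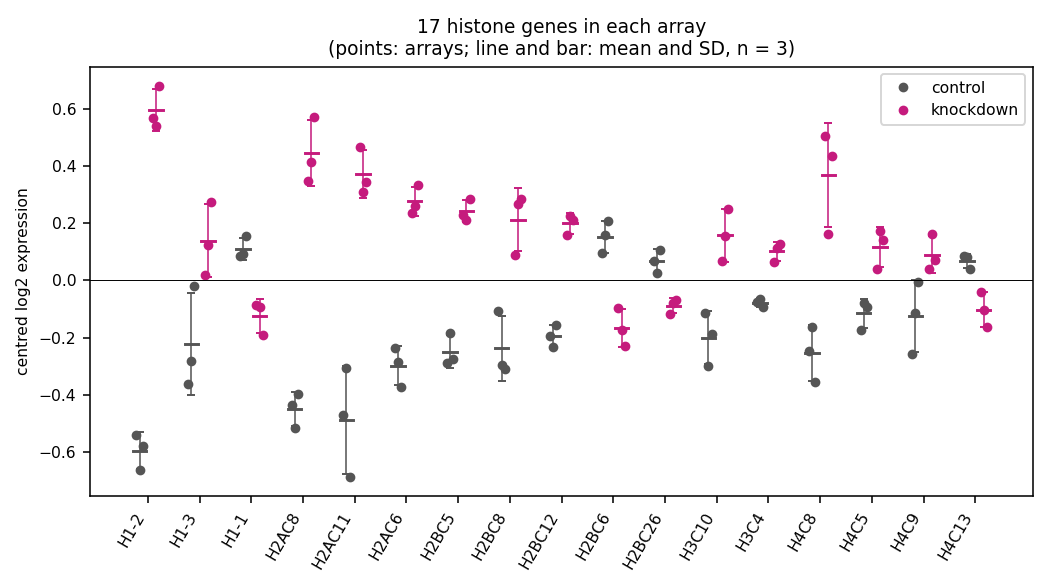
Centred log2 expression of 17 histone genes in each array, in control (grey) and knockdown (magenta) cells, with the mean and SD of 3 arrays. None of these genes overlaps between the groups, but they were picked for the largest changes that passed the test, which favours this. Over all genes, 50.0% did not overlap. The gap is widest for H1-2 and narrowest for H1-3 and H4C9, whose control replicate 3 lies at -0.020 and -0.0054, just under the lowest knockdown values.

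The mean over a class in each array describes how alike the arrays were, not how evenly the genes moved. In H2A this mean differed by 0.24 between the groups, while the median change of its genes was 0.14. For H2A the knockdown arrays were at 0.13, 0.087 and 0.14 and the control arrays at -0.13, -0.11 and -0.11. For H2B they were at 0.060, 0.060 and 0.045 against -0.034, -0.074 and -0.050. For H4 they were at 0.090, 0.069 and 0.0091 against -0.042, -0.063 and -0.059. In these 3 classes all knockdown arrays lay above all control arrays, while H1 and H3 overlapped. With hybridization spike-in centring the class medians were -0.16 for H1, -0.033 for H2A, -0.075 for H2B, -0.18 for H3 and -0.082 for H4. The median of all genes was then -0.17.

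**Figure D3:**
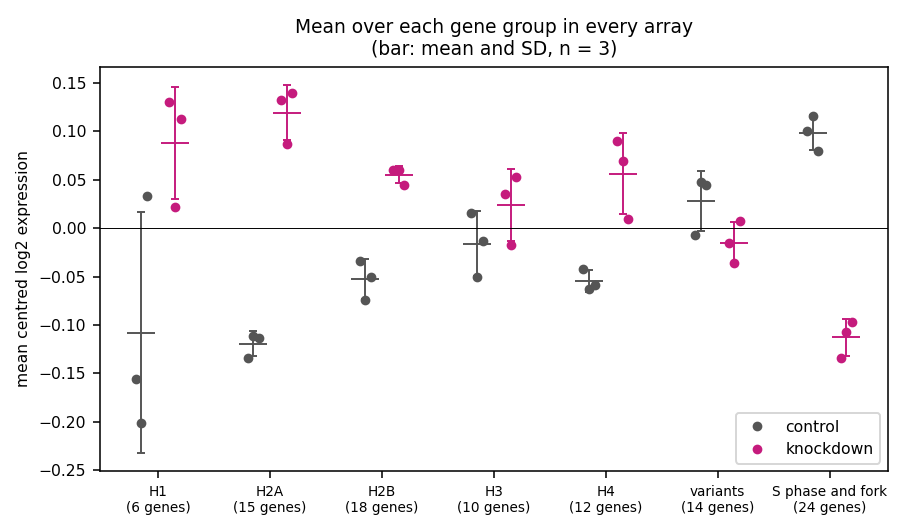
Mean centred log2 expression over the genes of each histone class, of replication-independent variants and of S phase and fork genes, in each control (grey) and knockdown (magenta) array, with the mean and SD of 3 arrays. Knockdown arrays lie above control arrays for H2A, H2B and H4, the groups overlap for H1, H3 and the variants, and knockdown arrays lie below for the S phase genes.

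Probe sets of the same gene did not always give the same answer. Of 29 genes with several probe sets, the median distance between the highest and the lowest was 0.18, and it exceeded 0.5 in 2 genes. For H2BC21 the _a_at probe set, a kind that reads several transcripts of the same gene, rose by 0.99 (SE 0.06, adjusted p = 1.15e-05). Its arrays were at 0.46, 0.42 and 0.50 in knockdown and at -0.60, -0.42 and -0.56 in control cells. The other 2 probe sets of H2BC21 stood at -0.091 each (SE 0.06 and 0.05) and did not pass the test, so the gene value of 0.27 is the mean of unlike readings. For H2BC12, a probe set of the high class rose by 0.75 (SE 0.05, adjusted p = 1.59e-05), and one of the low class stood at 0.039 (SE 0.07). For H2BC18, 2 _s_at probe sets rose by 0.47 and 0.42, and 2 unshared ones stood at 0.037 and 0.040. No gene had both a rising and a falling probe set that passed the test.

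**Figure D4:**
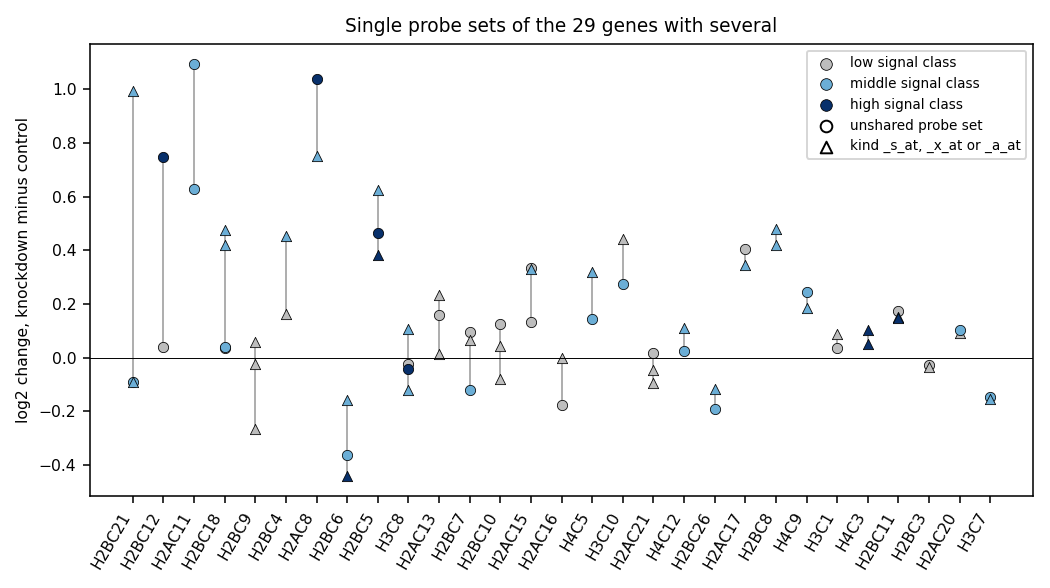
Log2 change, knockdown minus control, of every probe set of the 29 histone genes that have several, ordered by the distance between the highest and lowest. Colour gives the signal class and shape the kind of probe set; H2BC21 spans -0.091 to 0.99 and H2BC12 spans 0.039 to 0.75.

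Over single probe sets, 27 of 104 histone probe sets rose (26.0%) and 6 fell (5.77%), beside 19.5% and 17.4% of all probe sets. The signal class and kind of probe set moved with the count. Rises were 4 of 44 in the low class, 18 of 49 in the middle class and 5 of 11 in the high class (9.09%, 36.7% and 45.5%), and over all probe sets they were 4.57%, 21% and 26.7%. For 21 of the 61 members every probe set was in the low class, and 3 of those genes rose. Rises were 9 of 52 unshared probe sets (17.3%, beside 12.9% of all unshared ones), 10 of 24 of the _s_at kind (41.7%, beside 23.8%) and 6 of 25 of the _x_at kind (24.0%, beside 18.9%). The _s_at kind can be shared between genes, and the _a_at kind, of which 2 of 3 rose, reads several transcripts of the same gene. Groups did not overlap in 50 histone probe sets (48.1%), beside 48.2% of all. Near-identical histone mRNAs can thus share a signal, and 15 of the 61 genes are read by no unshared probe set.

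Genes that RefSeq lists with a long transcribed region stood higher. In RefSeq (GRCh38.p14), 54 of the genes span 386 to 797 bases, the size of a short mRNA without introns, and 7 span over 1000 bases: H2BC4, H2BC5, H2BC12, H2BC18, H2BC21, H3C4 and H3C6. Of these 7, 6 have more than 1 RefSeq transcript, which is true of 0 of the other 54. In the deposited scaling 6 of the 7 rose (21.4% of all genes did), with a median of 0.27 and H3C6 at 0.16 not passing the test. Of the 54 shorter genes 16 rose and 4 fell, with a median of 0.062. The 7 long genes all have a probe set of the middle or high signal class. The 21 genes read only in the low class, of which 3 rose, are all shorter, so length was not separated from signal class. For H2BC18 and H2BC21 the rises came from _s_at or _a_at probe sets, and the unshared ones stood at 0.037, 0.040 and -0.091. Under hybridization spike-in centring, 2 of the 7 rose, H2BC5 (0.32) and H2BC12 (0.23). This split was chosen after the values were seen and has no test, and the strongest changes of all, H1-2, H2AC8 and H2AC11, belong to the short genes.

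Many H2A and H2B genes face away from each other across a common stretch of DNA. Among the 56 genes with a RefSeq promoter entry, 11 H2A and H2B pairs start within 194 to 248 bases of each other. H2AC8 and H2BC8 both rose (0.89 and 0.45), as did H2AC6 and H2BC4 (0.57 and 0.31). H2BC8, H2AC6 and H2BC4 are read by no unshared probe set, so signal from other histone mRNAs may enter their values. In H2AC25 and H2BC26 the members went opposite ways (0.14 and -0.16), but under hybridization spike-in centring both lay below 0 (-0.033, adjusted p = 0.541, and -0.32). In 6 pairs only 1 member passed the test, such as H2AC11 (0.86) beside H2BC11 (0.16), or H2AC15 (0.26) beside H2BC15 (-0.16), and in 2 pairs neither did. Differences within a pair were not tested.

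**Figure D5:**
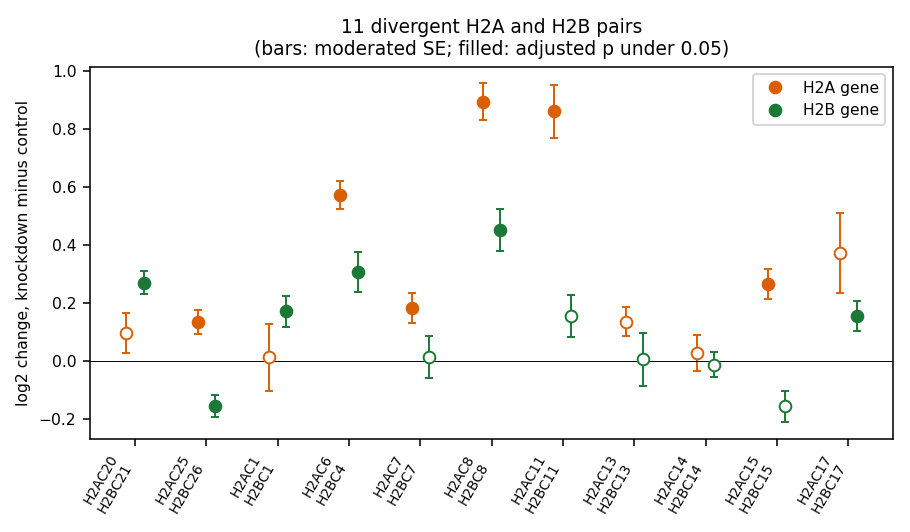
Log2 change, knockdown minus control, of the H2A (orange) and H2B (green) gene of 11 pairs that start head to head, with the moderated SE as bar and filled points for those that passed the test. Both members lie well above 0 for H2AC8 and H2BC8 and for H2AC6 and H2BC4, while H2AC25 and H2BC26 lie on opposite sides in the deposited scaling.

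Of 18 genes of stem-loop processing 10 fell and 1 rose (55.6% and 5.56%, median -0.10), beside 18.6% and 21.4% of all genes. Under hybridization spike-in centring, where 50.7% of all genes fell, 16 fell and 0 rose. SLBP itself stood at -0.075 (SE 0.04, adjusted p = 0.176) and the processing factor CASP8AP2 at 0.025 (SE 0.04, adjusted p = 0.636). Under hybridization spike-in centring both passed the test as falls (-0.24, adjusted p = 0.0017, and -0.14, adjusted p = 0.0208). The cap-binding subunit NCBP1 fell (-0.61) and the Sm protein SNRPF fell (-0.57), both also parts of general mRNA handling, and the cleavage factor CPSF2 rose by 0.27 but not under hybridization spike-in centring (0.10). Of 13 measured genes of histone gene transcription 2 rose and 2 fell (15.4% each, near the shares of all genes). Under hybridization spike-in centring 0 rose and 7 fell, beside 9.73% and 50.7% of all genes. NPAT, the activator of histone transcription that cyclin E and CDK2 phosphorylate, stood at -0.072 (SE 0.04, adjusted p = 0.196), and under that centring it passed as a fall (-0.24, adjusted p = 0.00324). CDK2 rose by 0.19 and the TBP-like factor TBPL1 by 0.27, neither of them under hybridization spike-in centring (0.018 and 0.11), and the cyclins CCNA2 and CCNE2 fell (-0.59 and -0.40).

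Of 18 genes of histone mRNA decay 8 fell and 2 rose (44.4% and 11.1%, beside 18.6% and 21.4% of all genes). Under hybridization spike-in centring 13 fell and 1 rose, beside 50.7% and 9.73% of all genes. ERI1, the exonuclease that trims the stem-loop, fell by 0.37 (SE 0.04, adjusted p = 2.45e-04). It is named here after its value was seen. The ring protein LSM3 fell (-0.41), as did the kinase SMG1 (-0.37). The uridyltransferase TUT4 rose by 0.49, and the exonuclease DIS3L2, which degrades uridylated RNA, by 0.23, the latter not under hybridization spike-in centring (0.066).

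Replication-independent histone variants, whose mRNAs are mostly polyadenylated, gave shares near those of all genes: 2 of 14 measured genes rose and 3 fell (14.3% and 21.4%), with a median of -0.017. With hybridization spike-ins as the reference, 7 fell and 0 rose, beside 50.7% and 9.73% of all genes. The centromeric H3 variant CENPA fell (-0.53), as did H2AZ2 (-0.34) and the DNA damage variant H2AX (-0.12). H2AJ rose by 0.28 and the oocyte linker histone H1-8 by 0.14, neither of them under hybridization spike-in centring (0.11 and -0.031). H2AZ1 (-0.058), H3-3A (-0.066), H3-3B (0.063), H1-10 (0.056) and MACROH2A1 (0.035) did not pass the test. Of these, H2AZ1 (-0.23, adjusted p = 0.00351) and H3-3A (-0.23, adjusted p = 0.0176) passed as falls under that centring. Of 26 histone chaperones and deposition factors 11 fell and 5 rose (42.3% and 19.2%, beside 18.6% and 21.4% of all genes), with a median of -0.031. Under hybridization spike-in centring 13 fell and 2 rose, beside 50.7% and 9.73% of all genes. NASP, which holds soluble H3 and H4, fell (-0.49), as did the helicase subunit and histone binder MCM2 (-0.46). UBN1, a subunit of the H3.3 chaperone complex, rose by 0.44, and ATRX, a remodeller that deposits H3.3, by 0.29. Under hybridization spike-in centring they stood at 0.27 and 0.13, both still passing the test. Named after their values were seen, DAXX of the same list fell (-0.29) and UBN2 rose (0.19, but 0.026 and not passing under that centring). HIRA (0.071) and CABIN1 (0.13) did not pass the test.

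Genes of S phase and the replication fork fell more often than they rose. Of 24 measured genes 14 fell and 1 rose (58.3% and 4.17%), with a median of -0.20, beside 18.6% and 21.4% of all genes and 4 falls and 22 rises among the 61 histone genes. Under hybridization spike-in centring 21 of the S phase genes fell and 1 rose, and 17 histone genes fell and 9 rose. Of all genes, 50.7% fell and 9.73% rose under that centring. The histone median was then -0.090 and that of all genes -0.17. Centring moves both alike, so their order was fixed by the deposited scaling. The difference between the lists was not tested. The mean of the S phase genes was -0.13, -0.11 and -0.097 in knockdown arrays and 0.10, 0.12 and 0.079 in control arrays, without overlap. ORC1, of the origin recognition complex, and the helicase subunit MCM4 fell (-0.67 each), and MCM6 rose by 0.41. Fewer cells in S phase and less RNA per cell cannot be told apart in such bulk samples, and protein was not measured.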

How the data were processed

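Total RNA of 3 knockdown and 3 control samples was hybridized to 6 Affymetrix arrays, per the labels' protocols. The deposited values are log2 expression. The submitters' processing notes name RMA, affy and limma without saying which did what. The log2 base is taken from RMA's usual output. Each probe set was centred on its median (largest absolute median 4.85e-07), a step not described in the sources used here, so level and signal over background are unknown. The number of arrays limits the precision.

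Genes come from the array annotation: 44988 probe sets had 1 symbol, 1832 several and 2473 none. All 61 histone symbols matched RefSeq by gene number. Probe sets of a gene were averaged, with no filter on low values, and compared by lmFit and eBayes (limma 3.58.1, R 4.3.3; two-sided, no block, Benjamini-Hochberg over all genes or probe sets), a fit tested on simulated data. Replicate pairs differed with an SD of 0.125 to 0.144, and none was a copy. Signal classes come from the step of single-precision rounding, which can place a probe set too high. Of 23 background controls, 13 were low, so a higher class does not show detection.

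The members and lists were chosen with earlier results of these data known. Named are up to 3 changed genes per direction and class, up to 2 per direction and list, and a panel. Any other gene was picked with its values in view. The alternatives tried were the largest-variance probe set, unshared probe sets, the signal class, array median or spike-in centring, array weights, a robust variance model, a replicate block and leaving out each array.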

Additional observations from a re-analysis of the deposited data

How the results depend on the processing

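The 22 rises and 4 falls became 9 and 17 with hybridization spike-in centring (median -0.0903, all genes -0.1714). They became 12 and 11 with poly-A spike-in centring (median -0.0205, all genes -0.1016) and 7 and 2 with unshared probe sets only (46 genes, median 0.0351). Array weights gave 7 falls. Probe sets above the low class gave a median of 0.142 over 40 genes. Leaving out each array gave 17 to 21 rises, 4 to 6 falls, a median of 0.0714 to 0.115, and 23 to 28 rising and 3 to 6 falling probe sets (3 without knockdown replicate 2 or control replicate 1). The class median of H2B was 0.126 with the largest-variance probe set, 0.0061 with unshared probe sets, 0.21 above the low class, 0.0647 with array weights and 0.0708 to 0.108 with an array left out. Above the low class H2A stood at 0.343 and H3 at 0.0738. Leaving out an array put H3 between -0.0308 and 0.0292 and H1 between -0.0538 and 0.102. With hybridization spike-in centring the class medians were -0.161 (H1), -0.0326 (H2A), -0.0748 (H2B), -0.179 (H3) and -0.0816 (H4), and with poly-A spike-ins -0.0916 (H1), 0.0371 (H2A), -0.005 (H2B), -0.109 (H3) and -0.0119 (H4). The cause was not tested, apart from the spike-in shift itself and the smaller number of genes.

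Of the 17 genes shown in each array, none changed direction under the alternatives in which it could be measured. They had been picked for the largest changes in their class, which favours this outcome. Of the other rises, H2AC25, H2BC17 and H4C16 lay below 0 under hybridization spike-in centring (-0.033, -0.013 and -0.037). The values showed no pairing by replicate number. Deviations of same-numbered samples correlated at -0.02, -0.01 and -0.06, and 0 of 6 samples correlated best with their own number. This cannot show whether same-numbered samples were handled together. With the replicate block, 21 genes rose and 4 fell (median 0.0773), and 29 probe sets rose and 6 fell. Without levels, signal over background cannot be given, and the low classes limit what 21 genes can show.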
